A study of Mus musculus with 20 samples.

Results

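The genes described here are 10 components of the circadian clock, chosen by name: Arntl, Clock, Per1, Per2, Per3, Cry1, Ciart, Nr1d1, Nr1d2 and Dbp. They were read by Ensembl identifier in a count table of 28632 genes, and all 10 had counts in every one of the 20 libraries. The libraries are bulk RNAseq of pancreatic islets from 12-week-old C57BL/6N mice in 4 genotypes: 6 Ctrl, 4 β-Mfn1KO (floxed Mfn1 with Ins1-Cre), 5 β-Mfn2KO (floxed Mfn2 with Ins1-Cre) and 5 β-Mfn1/2DKO (both floxed genes with Ins1-Cre). Female and male mice numbered 3 and 3 in Ctrl, 3 and 1 in β-Mfn1KO, 2 and 3 in β-Mfn2KO, and 2 and 3 in β-Mfn1/2DKO. Mfn1 and Mfn2 encode mitofusins, the proteins that fuse outer mitochondrial membranes. Ins1-Cre acts in β-cells, while an islet library also holds RNA of the other islet cells. The labels call the Ctrl mice wild type, whereas the methods pool mice that carried Cre alone or floxed alleles alone. Mice were housed in a light and dark cycle, and islets were kept in culture between isolation and lysis. The hour of collection is not given in the sources used here.

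The circadian clock is a transcriptional feedback loop that runs in nearly every cell, islet cells included. Arntl (also called Bmal1) pairs with Clock and binds E-box sequences, where it activates the Per and Cry genes, whose proteins then repress that pair. Nr1d1 and Nr1d2 (the REV-ERB receptors) repress Arntl, and Dbp, itself driven by the pair, activates genes through D-box sequences. In a tissue sampled round the clock, Arntl is therefore high when Dbp and Nr1d1 are low, and islet clocks are known for their part in the daily timing of insulin secretion.

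Depth was 12.4 to 20.3 M counts (M for mega) in Ctrl, 15.7 to 16.7 in β-Mfn1KO, 15.1 to 59.5 in β-Mfn2KO and 65.5 to 123 in β-Mfn1/2DKO. Depth and the double knockout cannot be told apart between Ctrl and β-Mfn1/2DKO alone, and outside the double knockout only β-Mfn2KO replicates 4 and 5 (56.0 and 59.5) exceeded 40 M. The targeted genes followed the labels: mean Mfn1 was 1670 normalized counts in Ctrl, 674 in β-Mfn1KO and 797 in β-Mfn1/2DKO, and mean Mfn2 was 3505 in Ctrl, 1577 in β-Mfn2KO and 2084 in β-Mfn1/2DKO. A normalized count is a count scaled by TMM, the normalization of edgeR, to the mean library size. The summed level of 10 β-cell markers was 146300 to 233900 counts per M (CPM) in Ctrl and 64750 to 87860 in β-Mfn1/2DKO, and all 10 were detected in every library. Ins1, the gene that carries the Cre, is in this sum. Its mean was 1444206 normalized counts in Ctrl, 817829 in β-Mfn1KO, 753680 in β-Mfn2KO and 238269 in β-Mfn1/2DKO, and the part of the Cre allele was not tested. The paper saw no significant difference in β-cell mass between genotypes, in 10-week-old mice. The summed level of 20 acinar markers was 26230 CPM in β-Mfn1/2DKO replicate 4, 68460 in replicate 5 and 11310 in β-Mfn2KO replicate 4, against 167 to 2993 in the other libraries. Duct markers summed to 541 to 612 CPM in Ctrl and 757 to 844 in β-Mfn1/2DKO, and endothelial markers to 125 to 190 and 181 to 285. In bulk libraries fewer cells of a type and less RNA per cell cannot be told apart. For the acinar markers, fits without the 2 double knockout libraries or with an acinar score as a covariate are given beside the calls they changed. Wherever the 2 acinar-high libraries are left out below, β-Mfn2KO replicate 4 was kept. The part of the other marker differences was not tested.

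Promoter sequences are shown for the 2 members that rose in the double knockout, for the member that fell there, and for 2 members that moved with or against Dbp between libraries. They are RefSeq sequences on GRCm38.p6, from 250 bases before to 50 bases after a start site, read 5′ to 3′ on the strand of the gene, and capitals mark a motif found by letter match on both strands. Of the 10 members, 9 were matched in the promoter table. The E-box CACGTG occurred in 7.15% of 32851 such windows of all genes, the D-box TTANGTAA in 2.32% and the REV-ERB and ROR element TAGGTCA in 2.61%. Ciart (chr3:95882179-95882478, minus strand) held 3 E-boxes, which began at -116, -58 and -44 from the start. Cry1 (chr10:85185005-85185304, minus strand) held 1 E-box at -60. One of the Per1 start sites (chr11:69098699-69098998, plus strand) held an E-box at -166. Per3 (chr4:151044616-151044915, minus strand) held 2 D-boxes at -205 and -158. One of the Arntl start sites (chr7:113207261-113207560, plus strand) held the TAGGTCA element at 31.
Ciart: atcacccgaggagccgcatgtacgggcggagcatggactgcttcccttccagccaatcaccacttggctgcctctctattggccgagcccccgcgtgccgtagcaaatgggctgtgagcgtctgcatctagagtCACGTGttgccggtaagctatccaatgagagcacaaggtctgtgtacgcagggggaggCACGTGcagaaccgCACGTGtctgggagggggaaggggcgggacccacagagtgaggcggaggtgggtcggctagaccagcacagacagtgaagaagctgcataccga
Cry1: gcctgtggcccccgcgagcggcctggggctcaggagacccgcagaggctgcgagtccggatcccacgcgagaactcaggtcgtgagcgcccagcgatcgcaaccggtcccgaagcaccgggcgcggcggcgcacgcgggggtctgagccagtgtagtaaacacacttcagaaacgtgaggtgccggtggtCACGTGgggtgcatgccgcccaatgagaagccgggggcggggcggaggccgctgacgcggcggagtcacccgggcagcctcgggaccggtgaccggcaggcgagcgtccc
Per1: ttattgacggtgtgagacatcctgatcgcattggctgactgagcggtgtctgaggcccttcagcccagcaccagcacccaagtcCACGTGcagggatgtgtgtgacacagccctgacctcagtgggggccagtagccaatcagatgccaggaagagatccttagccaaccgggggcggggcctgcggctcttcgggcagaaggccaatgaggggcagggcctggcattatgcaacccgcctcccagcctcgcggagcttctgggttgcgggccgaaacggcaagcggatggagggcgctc
Per3: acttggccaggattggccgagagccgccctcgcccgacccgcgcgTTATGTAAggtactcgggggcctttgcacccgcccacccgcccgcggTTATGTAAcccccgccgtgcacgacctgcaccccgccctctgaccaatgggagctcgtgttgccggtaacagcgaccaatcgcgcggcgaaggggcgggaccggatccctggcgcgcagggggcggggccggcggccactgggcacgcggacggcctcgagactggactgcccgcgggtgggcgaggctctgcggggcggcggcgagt
Arntl: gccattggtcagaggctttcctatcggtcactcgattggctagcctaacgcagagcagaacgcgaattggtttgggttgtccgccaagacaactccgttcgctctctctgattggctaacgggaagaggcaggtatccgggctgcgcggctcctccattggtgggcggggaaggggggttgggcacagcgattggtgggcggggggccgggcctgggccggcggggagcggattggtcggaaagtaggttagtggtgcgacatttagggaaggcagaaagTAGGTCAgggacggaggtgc
None of the 3 motifs, nor the cAMP response element TGACGTCA (in 1.79% of all windows), was found by letter match in the windows of Clock, Nr1d1, Nr1d2 or Dbp.

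Per kilobase of exon, the mean level over the 20 libraries ran from 1600 normalized counts for Dbp, through 955 for Nr1d2 and 680 for Nr1d1, to 155 for Ciart and 76.2 for Arntl. Clock stood at 333, Per1 at 305, Per2 at 302, Cry1 at 259 and Per3 at 162 on the same scale. A pair of members shares exon sequence with an expressed gene on the opposite strand, and no source says whether reads were counted by strand. Dbp (chromosome 7) shares 539 bases, 18.0% of its exon length, with Sphk2, and Nr1d1 (chromosome 11) shares 263 bases, 8.55%, with Thra. Mean counts of Sphk2 were 60.5% of those of Dbp and mean counts of Thra were 134% of those of Nr1d1, so the levels of these 2 members are uncertain, by an amount that was not tested.

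In β-Mfn1/2DKO islets, Ciart and Cry1 were higher than in Ctrl, Per1 was lower, and the other 7 members did not pass the test. Thus 3 of 10 members passed at an adjusted p under 0.05 (quasi-likelihood test of edgeR, p-values adjusted over all genes by Benjamini-Hochberg), where 16.5% of all genes tested passed and 33.6% of the 12274 genes whose mean reached 100 normalized counts. With a fold change over 1.5 as well, 2 of 10 members were called, against 5.21% of all genes. The median log2 fold change of the 10 members was -0.005, beside 0.06 over all genes.

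Ciart encodes CHRONO, a repressor of the Arntl and Clock pair. Its normalized counts in the 6 Ctrl libraries ran from 209 through a median of 248 to 285. They were 268, 352, 291 and 319 in β-Mfn1KO and 240, 223, 431, 220 and 313 in β-Mfn2KO. In β-Mfn1/2DKO they were 580, 808, 682, 460 and 320, so that every double knockout library lay above every Ctrl library. The lowest of the 5, at 320, lay below the highest β-Mfn1KO and β-Mfn2KO libraries. Against Ctrl, the log2 fold change in β-Mfn1/2DKO was 1.20 (SE 0.19, fold 2.29, adjusted p = 0.000123 by edgeR), and against β-Mfn2KO 1.01 (SE 0.20, fold 2.01, adjusted p = 0.00129). Ciart passed against Ctrl under every alternative run, with log2 fold changes of 1.07 to 1.49 and adjusted p up to 0.0436, the last with depth class (above or below 40 M counts) as a covariate. With only the 7 libraries above 40 M counts, the difference from β-Mfn2KO was 1.15 and did not pass (adjusted p = 0.0863 by edgeR).

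Cry1 encodes a cryptochrome, the strong repressor of the loop. Its normalized counts ran from 569 through a median of 744 to 866 in Ctrl. They were 748, 940, 678 and 757 in β-Mfn1KO and 1080, 775, 773, 879 and 851 in β-Mfn2KO. In β-Mfn1/2DKO they were 1016, 881, 1040, 1326 and 1267, all above the highest Ctrl library. Groups that did not overlap between β-Mfn1/2DKO and Ctrl occurred for 10.6% of all genes, and among the members for Ciart and Cry1. The log2 fold change against Ctrl was 0.62 (SE 0.12, fold 1.54, adjusted p = 0.000759 by edgeR). Against β-Mfn2KO it was 0.345 (SE 0.12, adjusted p = 0.0697), with 1 β-Mfn2KO library inside the double knockout range. With depth class as a covariate, which only the β-Mfn2KO libraries can inform, Cry1 kept its size against Ctrl at 0.64 but did not pass (adjusted p = 0.148 by edgeR).

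Per1 encodes a period protein and is also an early-response gene. Its normalized counts ran from 1429 through a median of 1814 to 2305 in Ctrl. They were 1876, 1828, 1838 and 2137 in β-Mfn1KO and 1842, 2071, 1801, 1422 and 1442 in β-Mfn2KO. In β-Mfn1/2DKO they were 1442, 1643, 1606, 1081 and 1302, which overlapped the lowest Ctrl library. Per1 fell by 0.37 on the log2 scale against Ctrl (SE 0.12, adjusted p = 0.0275 by edgeR). That call was lost without the 2 β-Mfn1/2DKO libraries with high acinar markers (log2 fold change -0.21, adjusted p = 0.296), with total-count scaling (-0.23, adjusted p = 0.156), and with the acinar score (mean log2 CPM of the 20 markers) as a covariate (-0.33, adjusted p = 0.0614), all by edgeR. It was also lost without any 1 of Ctrl replicates 2 and 4 or β-Mfn1/2DKO replicates 1, 4 and 5 (adjusted p from 0.0504 to 0.115), and with depth class as a covariate the estimate was 0.04.

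**Figure D1:**
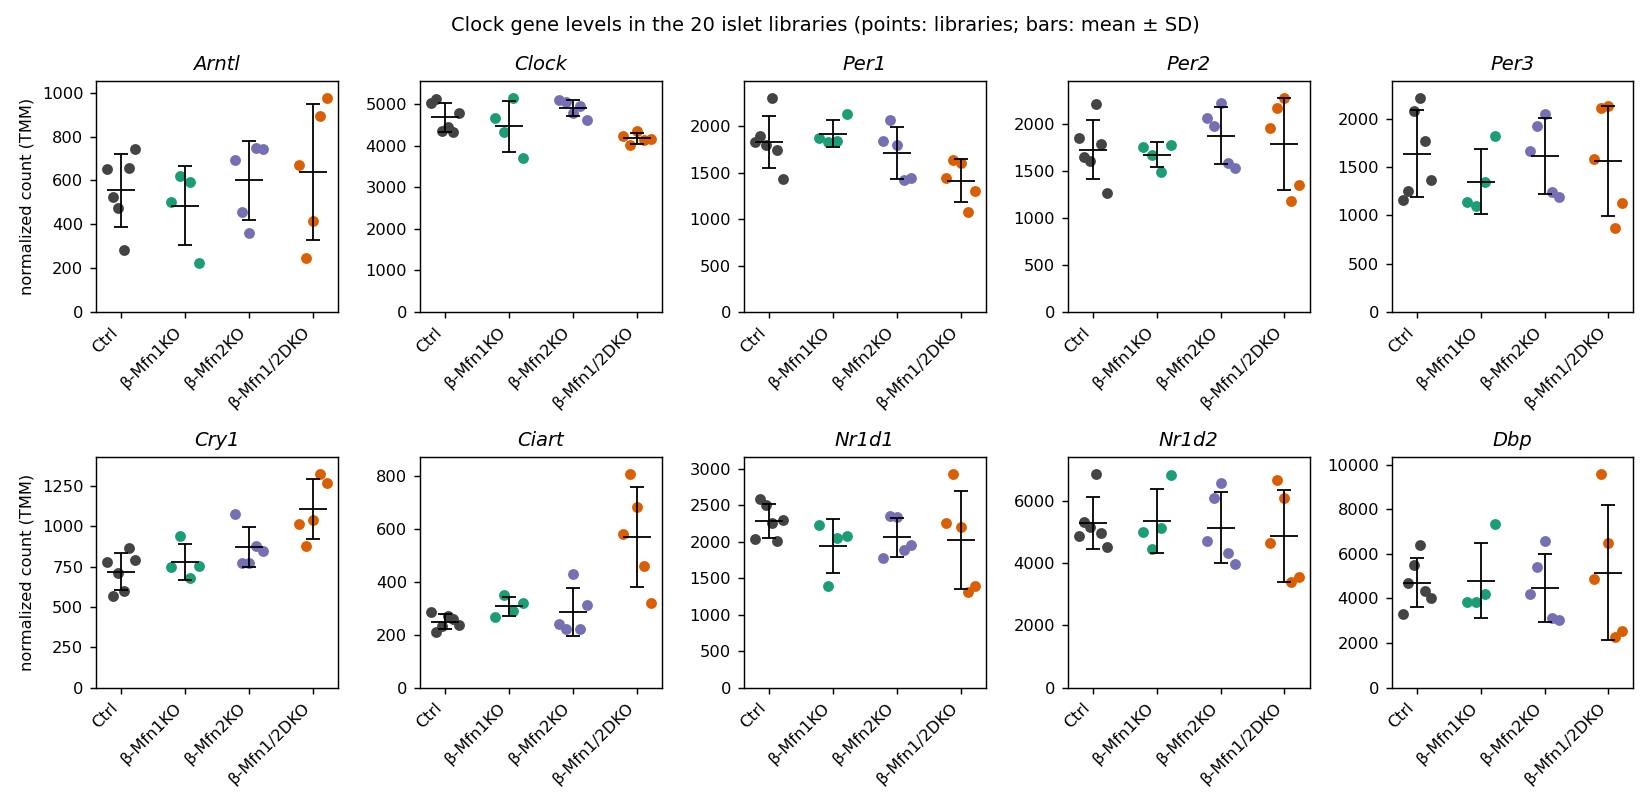
Normalized counts (TMM, linear axis from 0) of the 10 clock genes by genotype; each point is 1 library and the bars are the mean ± SD. Ciart and Cry1 in β-Mfn1/2DKO lie above all 6 Ctrl libraries, while Arntl and Dbp spread widely within each genotype.

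**Figure D2:**
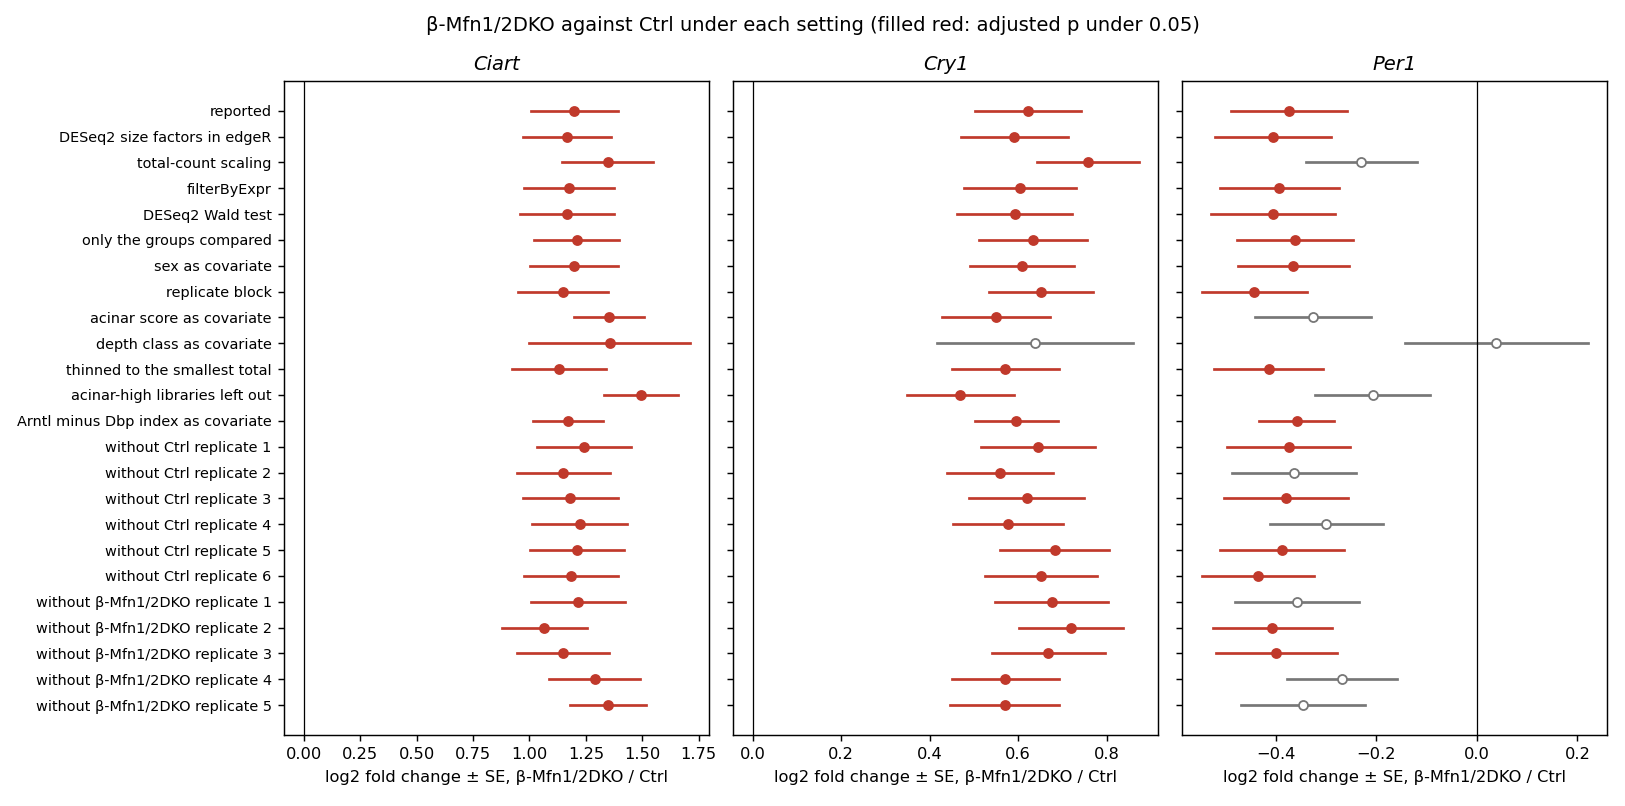
Log2 fold change (± SE) of Ciart, Cry1 and Per1 in β-Mfn1/2DKO against Ctrl as reported, under each alternative setting and without each library in turn; filled red points passed at an adjusted p under 0.05. Ciart stays between 1.07 and 1.49, whereas Per1 crosses the threshold in several settings.

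The other period genes did not pass the test. Per2 averaged 1728 ± 313 normalized counts (SD, n = 6) in Ctrl and 1791 ± 492 (n = 5) in β-Mfn1/2DKO, a log2 difference of 0.05 (95% interval -0.26 to 0.365). Per3 averaged 1638 ± 447 in Ctrl and 1563 ± 570 in β-Mfn1/2DKO, a log2 difference of -0.06 (interval -0.52 to 0.39). Per2 and Per3 are both period repressors of the loop, and in each the groups overlapped.

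Among the activators, Clock averaged 4686 ± 348 normalized counts in Ctrl, 4466 ± 606 in β-Mfn1KO and 4905 ± 198 in β-Mfn2KO. Its values in β-Mfn1/2DKO were 4231, 4012, 4359, 4133 and 4156. These lay below all 5 β-Mfn2KO libraries, which ran from 4628 to 5115, as they did in either direction for 11.8% of all genes. The log2 fold change against β-Mfn2KO was -0.23 (SE 0.07, adjusted p = 0.0263 by edgeR), and against Ctrl -0.17 (SE 0.07, adjusted p = 0.093), where Clock passed by DESeq2 (adjusted p = 0.0132). The call against β-Mfn2KO was lost in 4 of 13 settings: with total-count scaling (-0.12, adjusted p = 0.337 by edgeR), which moves the median of all genes in this comparison by 0.10, with depth class as a covariate (adjusted p = 0.235), without the 2 acinar-high libraries (adjusted p = 0.134), and in the 7 deep libraries alone (adjusted p = 0.181). It was also lost without any 1 of replicates 1 to 4 of either group (adjusted p from 0.0502 to 0.0948).

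Arntl, the partner of Clock, showed no difference beyond its spread. Its normalized counts ran from 281 through a median of 587 to 741 in Ctrl, and were 502, 619, 591 and 224 in β-Mfn1KO. They were 694, 456, 361, 747 and 742 in β-Mfn2KO and 670, 247, 414, 893 and 975 in β-Mfn1/2DKO. The double knockout thus held both libraries below and libraries above the Ctrl range. The log2 fold change against Ctrl was 0.20 with a 95% interval of -0.43 to 0.83. The interval includes a rise of 1.5-fold, so a rise of that size is not excluded.

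Nr1d1 and Nr1d2, the REV-ERB receptors, did not pass in any comparison. Nr1d1 averaged 2282 ± 233 normalized counts in Ctrl and 2021 ± 673 in β-Mfn1/2DKO, where its values were 2262, 2933, 2199, 1313 and 1396. Nr1d2 averaged 5291 ± 824 in Ctrl and 4874 ± 1471 in β-Mfn1/2DKO. Both genes reached above the Ctrl mean in replicate 2 and fell below the Ctrl range in replicates 4 and 5 of the double knockout.

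Dbp, the output activator, ran from 3283 through a median of 4516 to 6409 normalized counts in Ctrl and was 3858, 3844, 4177 and 7318 in β-Mfn1KO. Its values were 4186, 5423, 6555, 3107 and 3023 in β-Mfn2KO and 4885, 9583, 6498, 2261 and 2534 in β-Mfn1/2DKO. Libraries of the double knockout were again found on both sides of the Ctrl range. The log2 fold change against Ctrl was 0.13 with a 95% interval of -0.48 to 0.75.

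In the single knockouts no member passed, and both comparisons share the 6 Ctrl libraries. For β-Mfn2KO against Ctrl, 0 of 10 members passed by edgeR (0.0559% of all genes did) and 1 had an unadjusted p under 0.05, which was Cry1, higher by 0.28 on the log2 scale (SE 0.12, adjusted p = 0.925). For β-Mfn1KO against Ctrl, 0 of 10 passed (0.0279% of all genes) and 0 had an unadjusted p under 0.05. DESeq2 passed 0 members in both comparisons. Ciart stood at 0.31 in β-Mfn1KO (interval -0.14 to 0.75) and at 0.19 in β-Mfn2KO (interval -0.22 to 0.61).

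Between β-Mfn1/2DKO and β-Mfn2KO, 2 of 10 members passed, Ciart higher and Clock lower, where 13.0% of all genes passed. Only Ciart also had a fold change over 1.5 (3.84% of all genes). Whether the effects of losing each mitofusin added up on the log2 scale was asked with an interaction term, which 0 of 10 members passed by edgeR and by DESeq2 and 5.92% of all genes did. Ciart had the only unadjusted p under 0.05, with an interaction of 0.70 (SE 0.29, adjusted p = 0.19 by edgeR). It rose to 0.99 and passed (adjusted p = 0.0176) without the 2 acinar-high double knockout libraries, and to 0.90 (adjusted p = 0.0495) without β-Mfn2KO replicate 3. Between 10 male and 10 female mice, 0 of 10 members passed by edgeR and by DESeq2 (0.126% of all genes by edgeR), and 1, Clock, had an unadjusted p under 0.05 at a log2 difference of -0.10 for male minus female.

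**Figure D3:**
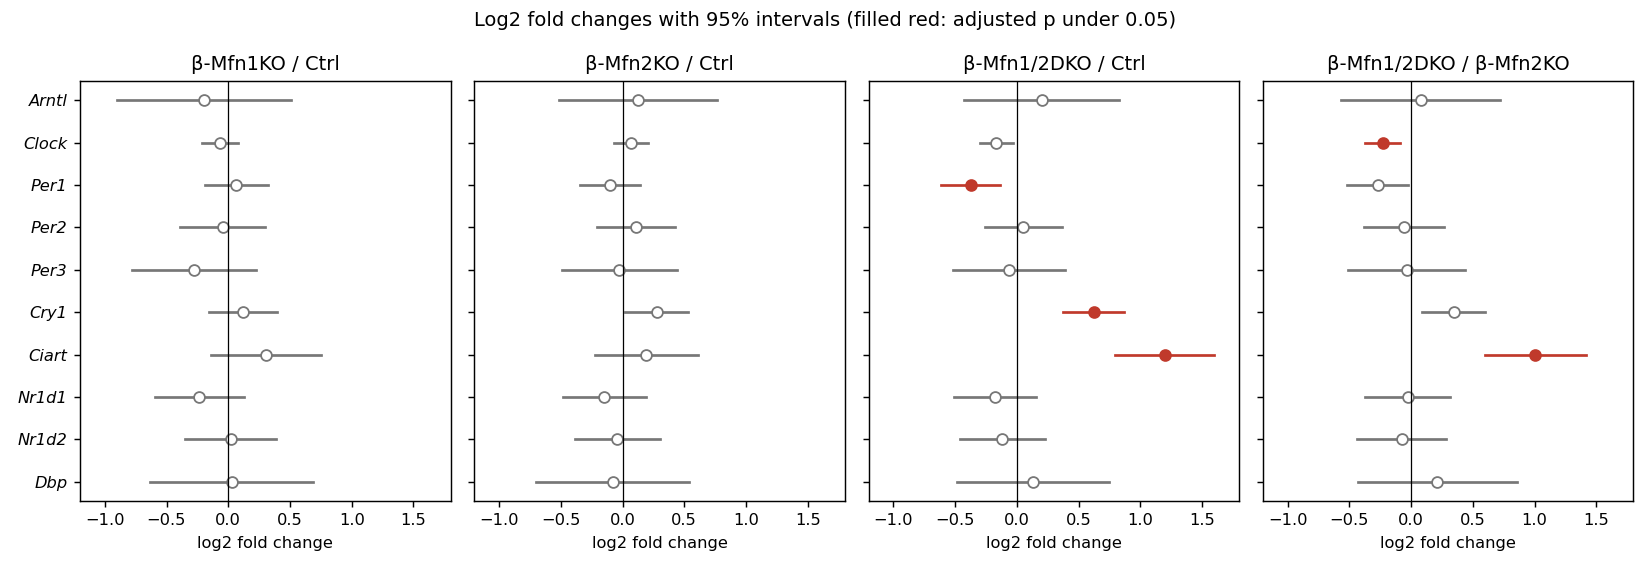
Log2 fold changes of the 10 clock genes in 4 comparisons with 95% intervals; filled red points passed at an adjusted p under 0.05. Passing members are Per1, Cry1 and Ciart in β-Mfn1/2DKO against Ctrl, and Clock and Ciart against β-Mfn2KO; Arntl and Dbp have the wide intervals.

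Of the 10 members, 9 differed more between mice of the same genotype than 80% of genes did. The SD of log2 CPM within genotypes was 0.63 for Arntl and 0.58 for Dbp, and these lay at the 98.0 and 97.6 percentiles of the 12274 genes whose mean reached 100 normalized counts, and whose median was 0.13. Per3 followed at 0.43, and Ciart, Nr1d2, Nr1d1 and Per2 lay between 0.29 and 0.35. Cry1 and Per1 stood at 0.22, and Clock, whose mRNA is known to cycle little, stood at 0.11, the 39.1 percentile. The lowest raw counts of Arntl and Ciart in any library were 80 and 76, so counting error is a small part of the spread of Arntl.

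This spread was ordered: libraries with high Arntl had low Dbp. After subtraction of genotype means, the log2 CPM of Arntl and Dbp had Pearson's r = -0.923 and Spearman's rho = -0.902 over 20 libraries (permutation p = 1e-05, the smallest that 100000 resamples can give, and 2e-05; adjusted over 5 pairs of genes 2.5e-05 and 5e-05). Without the 2 libraries farthest from the median of Arntl, r was -0.877. Before subtraction of genotype means, r was -0.910. Arntl and Nr1d1 were also opposed, less closely, with r = -0.702 and rho = -0.713 (permutation p = 0.00862 and 0.00474, adjusted 0.00862 and 0.00592), and r = -0.604 without the 2 farthest libraries. Thus Arntl was opposed to both Dbp and Nr1d1 over all 20 libraries, and the relation to Nr1d1 was weaker in some of the subsets given below.

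Further pairs were read on the side of Dbp. Dbp and Nr1d1 rose and fell together with r = 0.800 and rho = 0.702 (permutation p = 0.00253 and 0.00885, adjusted 0.00316 and 0.00885), and r = 0.650 without the 2 farthest libraries. Dbp and Per3 had r = 0.923 and rho = 0.931 (permutation p = 1e-05 for each, adjusted 2.5e-05 and 5e-05), and r = 0.920 without the farthest 2. The Per3 window holds the 2 D-boxes shown above. Nr1d2, whose window held none of the motifs, stood at 0.953 with Dbp, and the part of the D-boxes was not tested. Arntl and Npas2, a paralog of Clock, had r = 0.910 and rho = 0.756 (permutation p = 2e-05 and 0.00157, adjusted 3.33e-05 and 0.00262), and r = 0.869 without the farthest 2.

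The relation of Arntl and Dbp was of like size within each class of library. It was r = -0.916 in 10 female and -0.922 in 10 male mice (permutation p = 0.0343 and 0.0272, adjusted 0.0872 and 0.0608). It was -0.930 in the 13 libraries below 40 M counts (permutation p = 0.00048, adjusted 0.0014) and -0.958 in the 7 above (permutation p = 0.0162, adjusted 0.0365). In the 6 Ctrl libraries alone it was -0.865 with rho = -0.829 (exact permutation p = 0.0236 and 0.0583, adjusted 0.0787 and 0.146). Without the 2 acinar-high double knockout libraries it was -0.927. Arntl and Nr1d1 did not hold as well, with r = -0.457 below 40 M counts (permutation p = 0.197) and -0.295 in Ctrl alone (exact permutation p = 0.614). Without the 2 acinar-high libraries r was -0.561 for Arntl with Nr1d1 and 0.566 for Dbp with Nr1d1 (adjusted permutation p = 0.0495 and 0.0478).

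**Figure D4:**
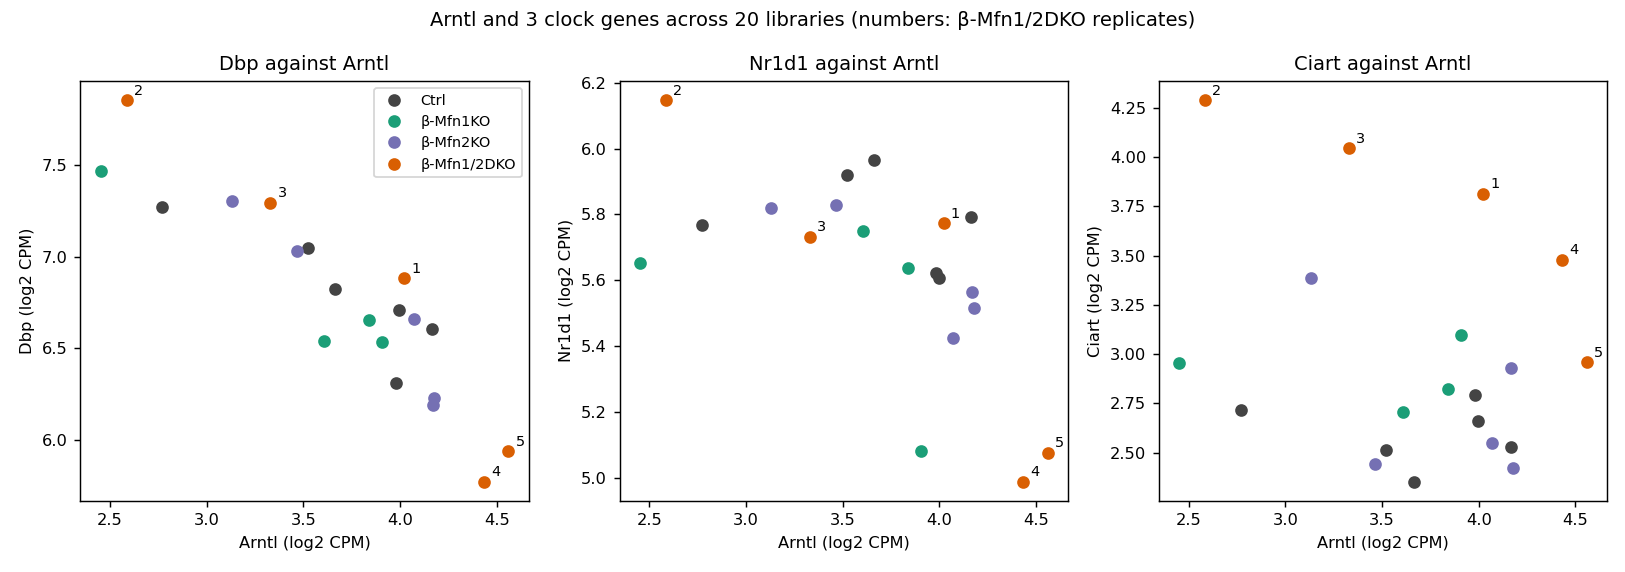
Log2 CPM of Dbp, Nr1d1 and Ciart against Arntl in the 20 libraries, coloured by genotype, with the replicate numbers of β-Mfn1/2DKO. Dbp falls as Arntl rises over the 20 libraries together (r = -0.910), while the double knockout points for Ciart lie above those of Ctrl.

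Most other members followed one of the 2 sides, given here as descriptions of the same 20 libraries. Against Arntl, the correlation of deviations was -0.946 for Nr1d2, -0.824 for Per3, -0.781 for Per1, -0.734 for Per2 and -0.587 for Ciart. Cry1, which is known to peak later than the other repressors, was on the side of Arntl at 0.664, and Clock was at 0.418. Nr1d2 and Per3 share no exon with an expressed gene on the opposite strand, so the opposition to Arntl was also present in members free of that overlap. Among 20 further clock genes, Nfil3, a repressor at D-boxes, stood at 0.935, Tef and Hlf, paralogs of Dbp, at -0.917 and -0.804, and Bhlhe40, an E-box repressor, at 0.03. These 4 were chosen after their values were seen.

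The libraries were ordered by Arntl minus Dbp on the log2 CPM scale, of which only differences between libraries are read. The value was -5.27 in β-Mfn1/2DKO replicate 2, -5.01 in β-Mfn1KO replicate 4 and -4.50 in Ctrl replicate 4. At the other end it was -2.02 in β-Mfn2KO replicate 5, -1.38 in β-Mfn1/2DKO replicate 5 and -1.34 in replicate 4. The double knockout therefore held the lowest and both of the highest libraries. Genotype medians lay close together, at -2.94 in Ctrl, -2.88 in β-Mfn1KO, -2.59 in β-Mfn2KO and -2.86 in β-Mfn1/2DKO. The SD was 0.81 in Ctrl, 1.11 in β-Mfn1KO, 0.96 in β-Mfn2KO and 1.69 in β-Mfn1/2DKO. The 4 highest libraries included all 3 with high acinar markers, of which β-Mfn2KO replicate 4 stood at -2.05, while the remaining one, β-Mfn2KO replicate 5, had 1013 CPM of acinar markers. All 4 were from male mice and above 40 M counts, as was β-Mfn1/2DKO replicate 3 near the low end at -3.97. The summed level of 13 immediate early genes, which answer depolarization and cAMP, was 173.5 to 220.0 CPM in the 7 lowest libraries and 250.8 to 306.8 in the 4 highest, with 192.2 to 288.3 in those between. By replicate number, all 4 libraries numbered 1 and all 3 numbered 5 lay above the mean of their genotype (by 0.10 to 0.78 and 0.40 to 1.59), and those numbered 4 lay on both sides (-1.66 to 1.62). The part of these features in the order was not tested.

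The level of Ciart was also read with this order in view. With Arntl minus Dbp added to the edgeR fit as a covariate, an alternative chosen after the data were seen, the log2 fold changes of β-Mfn1/2DKO against Ctrl were 1.17 for Ciart (adjusted p = 1.35e-05), 0.60 for Cry1 (9.86e-05) and -0.36 for Per1 (0.00154). The 3 differences kept their size in that fit. Mean Arntl minus Dbp was -3.11 in Ctrl and -2.96 in β-Mfn1/2DKO, so the covariate could move them only little. Nothing is therefore read from this fit about the part of the order in these differences. The windows of Ciart, Cry1 and Per1 shown above each held an E-box, and the part of this motif in the 3 differences was not tested.

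**Figure D5:**
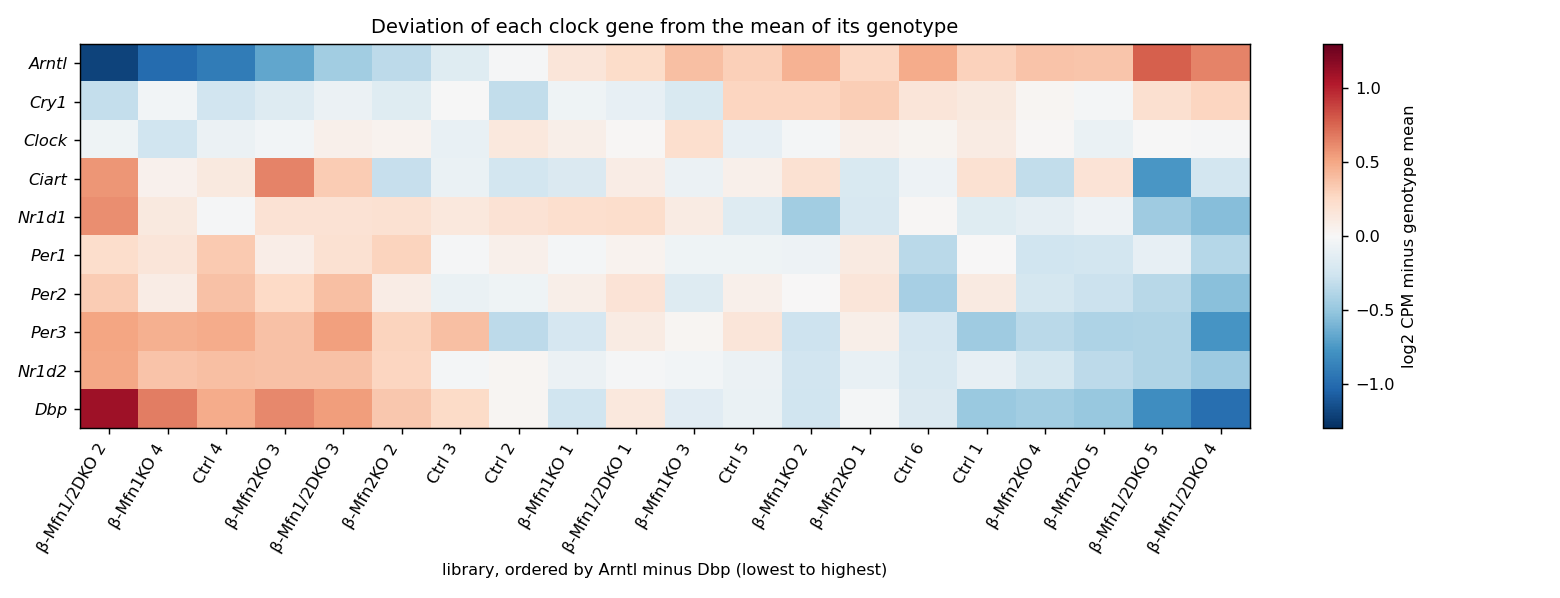
Deviation of each clock gene from the mean of its genotype (log2 CPM, red above and blue below), with the 20 libraries ordered by Arntl minus Dbp from lowest to highest. Dbp, Nr1d2 and the Per genes change from red to blue along the order as Arntl changes from blue to red, while Clock stays pale.

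Genes outside the clock that resembled the members most were named by rank among 12227 genes. For Arntl the highest correlations of deviations over 20 libraries were with Ypel2 (0.920), Piga (0.907), Rhobtb1 (0.897), Prdm1 (0.887) and Cmpk2 (0.886), and the lowest with Mtmr7 (-0.885), Pja1 (-0.878), Umad1 (-0.854), Poldip3 (-0.830) and Hes6 (-0.829). For Dbp the highest were Pja1 (0.923), Akr1c19 (0.896), Mtmr7 (0.890), Pccb (0.879) and Poldip3 (0.867). The lowest for Dbp were Cgn (-0.899), Piga (-0.881), Hspa1b (-0.871), Hspa1a (-0.864) and Ypel2 (-0.857), of which Hspa1a and Hspa1b are near-identical heat shock genes whose counts may be shared.

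The rest of the clock was read from a list of 20 further genes, of which 4 rose and 1 fell in β-Mfn1/2DKO against Ctrl by edgeR and 7 passed by DESeq2. That share lay between the 16.5% of all genes and the 33.6% of genes averaging 100 normalized counts or more that passed by edgeR, so nothing is read from it about the list. The median log2 fold change was 0.175, beside 0.06 over all genes. Among repressors, Bhlhe40 rose by 0.55 (SE 0.11, adjusted p = 0.000658 by edgeR), from 860 to 1116 normalized counts in Ctrl to 1256 to 1731 in β-Mfn1/2DKO. Among the ROR receptors, which activate Arntl, Rora rose by 0.26 (SE 0.07, adjusted p = 0.0123). Among genes for turnover of clock proteins, Csnk1e, a casein kinase, rose by 0.27 (SE 0.06, adjusted p = 0.00313) and Fbxw11, a ubiquitin ligase subunit, by 0.23 (SE 0.05, adjusted p = 0.00103). Prkaa1, a catalytic subunit of AMPK, fell by 0.33 (SE 0.06, adjusted p = 0.000195). Prkaa2, the other catalytic subunit, did not pass, with means of 595 normalized counts in Ctrl and 691 in β-Mfn1/2DKO.

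Against β-Mfn2KO, 3 of the 20 rose and 1 fell in β-Mfn1/2DKO, where 13.0% of all genes passed and 26.6% of genes averaging 100 normalized counts or more. Bhlhe40 rose by 0.51 (adjusted p = 0.00262 by edgeR), Csnk1e by 0.25 and Fbxw11 by 0.20. Prkaa1 fell by 0.34 (adjusted p = 0.000342). Csnk1e did not pass against β-Mfn2KO without the 2 acinar-high double knockout libraries (log2 fold change 0.22). In this comparison Bhlhe40 and Csnk1e were each lost in 2 of 13 settings and Prkaa1 in 1 of 13, while Fbxw11 passed in all 13. Of the 5 genes that passed against Ctrl, only Fbxw11 did so once depth class was a covariate.

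Of 10 output genes of the clock, 4 rose and 0 fell in β-Mfn1/2DKO against Ctrl, where 9.59% of all genes rose and 6.86% fell, and 33.6% of genes averaging 100 normalized counts or more passed in either direction. Klf10, a glucose- and clock-responsive repressor, rose by 0.51 (SE 0.08, adjusted p = 0.00013 by edgeR), a call lost in 1 of 12 settings. Cdkn1a rose by 0.68 (SE 0.19, adjusted p = 0.0142), Wee1 by 0.48 (adjusted p = 0.0315) and Klf9 by 0.21 (adjusted p = 0.0215). Cdkn1a and Wee1 encode cell cycle inhibitors, and neither passed without the 2 acinar-high libraries (log2 fold changes of 0.20 and 0.37) or with the acinar score as a covariate. Cdkn1a was lost in 3 of 12 settings and without β-Mfn1/2DKO replicate 5 (adjusted p = 0.0735 by edgeR). Wee1 was lost in 4 of 12 settings and without any 1 of Ctrl replicates 1, 2, 3 and 6 or β-Mfn1/2DKO replicate 5 (adjusted p up to 0.11). Klf9 was lost in 2 of 12 settings and without Ctrl replicate 1 or 2 (adjusted p up to 0.0565).

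Lists for other inputs that can set clock genes were read as well. Of the 13 immediate early genes, 0 rose and 4 fell in β-Mfn1/2DKO against Ctrl, beside the shares of all genes just given: Fosb by 0.82 (adjusted p = 0.0439 by edgeR), Nr4a2 by 0.72 (adjusted p = 0.00878), Crem by 0.64 (adjusted p = 0.00383) and Sik1 by 0.45 (adjusted p = 0.0287). The Fosb call was lost in 7 of 12 settings and without any 1 of Ctrl replicates 1, 2, 3 and 5 or β-Mfn1/2DKO replicates 1, 3, 4 and 5 (adjusted p up to 0.138 by edgeR). The Sik1 call was lost in 3 of 12 settings and without any 1 of Ctrl replicates 1, 2 and 4 or β-Mfn1/2DKO replicates 1, 2 and 3 (adjusted p up to 0.0926). Nr4a2 and Crem were lost in 1 of 12 settings each, with depth class as a covariate. Per1, which such signals also induce, fell too, a call lost in the settings given above. Of 7 glucocorticoid targets, Fkbp5 rose by 0.59 (SE 0.07, adjusted p = 2.88e-06), Klf9 rose as given above, Per1 fell, and 4 did not pass. In the single knockouts 0 genes of these 4 lists passed by edgeR, at 0 to 1 per list with an unadjusted p under 0.05, and 0 passed by DESeq2, in which 1 further clock gene and 1 output gene had no adjusted p.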

How the data were processed

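RNAseq was read from islets of 20 mice. Per the paper's methods and the submitters' processing notes, the authors aligned reads to GRCm38 with STAR 2.6.1b and estimated gene counts with RSEM 1.3.1; the deposited table holds these expected counts as whole numbers, without normalization. A second deposited table, normalized by the authors, was not used here, and 0 sample columns had no label.

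The test, over 28632 genes, was that of edgeR 4.0.16 under R 4.3.3 (TMM, glmQLFit, glmQLFTest, 1 fit over 20 libraries, prior degrees of freedom 6.24, no low-count filter), and p-values were adjusted by Benjamini-Hochberg within each contrast. A gene passed at an adjusted p under 0.05 and was called with a fold change over 1.5 as well. Log2 CPM used a prior count of 2. Correlations of log2 CPM were tested by two-sided permutation, within genotypes for deviations, with 100000 resamples (exact for Ctrl alone) in Python 3.11.15, NumPy 2.4.6 and SciPy 1.17.1. The edgeR test was also run on simulated counts without acinar differences or deviations shared between libraries, and nothing is read from that run here. The p-values of edgeR judge a difference between groups against the spread between libraries of the same genotype. Those of the correlations compare r or rho with values from permuted libraries. Depth was 12.4 to 123 M counts per library; DESeq2 1.42.0 and other scalings, filters, covariates and left-out libraries were the alternatives. Named genes were the members, listed genes that passed, and the 5 most and 5 least correlated genes for Arntl and for Dbp. The members and lists were chosen with earlier results of these data known, and a few further clock genes are not reported here.

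Replicate numbers are shared between genotypes in the labels, which do not say what they stand for.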

Additional observations from a re-analysis of the deposited data

Results flagged for a closer look

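In 40 sets of libraries (10 members in 4 genotypes), 3 values stood far from the rest of their genotype by Dixon's criterion, which chance meets in about 1 in 20 sets; they came from 2 of the 4 β-Mfn1KO libraries. Per1 was high in β-Mfn1KO replicate 4, at 5.69 log2 CPM, and Dbp was high in the same library, at 7.47. Nr1d1 was low in β-Mfn1KO replicate 2, at 5.08. In replicate 4, Arntl was the lowest of its genotype. That library came from the only male among the 4 β-Mfn1KO mice, so sex and this library cannot be told apart within the genotype.

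Among 56 listed genes, 6 differed in the effect of losing Mfn1 with and without Mfn2, by the interaction term of edgeR at an adjusted p under 0.05; none was one of the 10 members. Over all genes 5.92% passed this term, and 12.8% of those averaging 100 normalized counts or more, and the share of listed genes lay between these. The interaction was positive for Klf10 (0.89, adjusted p = 0.000261), Bhlhe40 (0.63, adjusted p = 0.02), Fkbp5 (0.53, adjusted p = 0.00368) and Csnk1e (0.32, adjusted p = 0.0427). It was negative for Crem (-0.86, adjusted p = 0.0198) and Prkaa1 (-0.30, adjusted p = 0.031). Klf10 and Fkbp5 passed in all 11 settings run and without any 1 library. Crem passed in the 11 settings but not without β-Mfn1KO replicate 1 or 2 (adjusted p = 0.0546 and 0.0604 by edgeR). Bhlhe40 was lost in 3 of 11 settings, which were the acinar score, depth class and the acinar-high libraries left out, and without β-Mfn1KO replicate 3 (adjusted p = 0.0506). Prkaa1 was lost in 5 of 11 settings and without any 1 of Ctrl replicate 6, β-Mfn1KO replicates 3 and 4, β-Mfn2KO replicates 1 to 3 or β-Mfn1/2DKO replicates 1, 2, 4 and 5 (adjusted p up to 0.09), and with total-count scaling it was -0.17. Csnk1e was lost in 7 of 11 settings and without any 1 of Ctrl replicates 3, 5 and 6, β-Mfn1KO replicates 1 to 3, β-Mfn2KO replicates 1, 2 and 4 or β-Mfn1/2DKO replicate 5 (adjusted p up to 0.0986).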

How the results depend on the processing

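Alternatives changed no count of passing members by over 1.5 times outside those given here, and the cause of each change was not tested. In β-Mfn1/2DKO against Ctrl, 3 members passed as reported, 1 with depth class as a covariate and 2 to 3 without any 1 library; in that depth fit the Per1 estimate was 0.0388, against -0.37. Against β-Mfn2KO, 2 passed as reported, 1 with depth class, 1 without the 2 acinar-high libraries, 4 with Arntl minus Dbp as a covariate, 0 in the 7 deep libraries alone, and 1 to 2 without any 1 library. The interaction passed for 0 members as reported, 1 with the acinar score, 1 without the acinar-high libraries, and 0 to 1 without any 1 library. The median log2 fold change of all genes in β-Mfn1/2DKO against Ctrl moved by 0.138 with total-count scaling and by -0.123 with DESeq2.

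The correlations kept their direction in all settings run, and without any 1 library they ran from -0.937 to -0.891 for Arntl with Dbp, -0.770 to -0.578 for Arntl with Nr1d1, 0.716 to 0.852 for Dbp with Nr1d1, 0.899 to 0.949 for Dbp with Per3 and 0.890 to 0.934 for Arntl with Npas2. Within smaller sets, chosen after seeing the data, some lost an adjusted permutation p under 0.05. In female mice r was -0.916 for Arntl with Dbp, -0.689 for Arntl with Nr1d1, 0.640 for Dbp with Nr1d1, 0.781 for Dbp with Per3 and 0.773 for Arntl with Npas2. In male mice r was -0.922, -0.731 and 0.904 for the first 3 pairs and 0.967 for Arntl with Npas2. Arntl with Nr1d1 was at -0.457 in libraries below 40 M counts and -0.905 above, and Dbp with Nr1d1 at 0.469 below.

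The paper calls the control mice littermates, and the labels do not say what the replicate numbers stand for. These numbers were not taken as pairing the samples, since not every same-numbered pair correlated at over 0.1, a rule that cannot exclude pairing. Of 27 such pairs 21 did (mean r 0.246, lowest -0.102), against 36 of 122 pairs with different numbers (mean r -0.054), and 10 of 20 libraries correlated best with their own number. Deviations were thus partly shared by same-numbered libraries, but 23 of the 27 pairs were also of the same sex (mean r 0.288). The 4 same-numbered pairs of different sex had a mean r of 0.009, and number and sex were not separated. With the replicate block, 3 members passed in β-Mfn1/2DKO against Ctrl and 3 against β-Mfn2KO, where Cry1 also passed (0.347, adjusted p = 0.0443 by edgeR), and r for Arntl with Dbp was -0.950. Depth limits Arntl and Ciart in the shallow libraries, where the lowest raw counts were 80 and 76.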
